A study of Mus musculus with 54 samples.

Results

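The genes described here are 6 secreted antagonists or modulators of bone morphogenetic protein (BMP) signalling, Grem1, Nog, Chrd, Chrdl1, Chrdl2 and Twsg1, in sorted cells of the fetal mouse intestine. They were chosen by symbol from 17393 genes with a row in any of the 4 expression tables. All 6 had a row in the table of CD29-HIGH cells, 5 in the table of epithelium and PDGFRA sorts (all but Chrdl2), 3 in the table of the inhibitor experiment (Grem1, Chrdl1 and Twsg1) and 4 in the E13.5 table (Nog, Chrd, Chrdl1 and Twsg1). The question was which sorted population holds the transcript of each antagonist, and whether that differs along the intestine.

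BMPs are secreted ligands that bind paired type I and type II receptors and act through SMAD transcription factors, which switch on Id genes and the inhibitory SMADs. Antagonists bind the ligands outside the cell and keep them from the receptors. In the adult intestine, BMP ligands restrain proliferation towards the villus, while antagonists made by muscle and by stromal cells beneath the crypts keep the signal low around stem cells. Gremlin 1 (Grem1) and Noggin (Nog) block ligands directly. Chordin (Chrd) binds ligands through cysteine-rich domains and is cut by tolloid proteases, Chordin-like 1 and 2 (Chrdl1, Chrdl2) carry the same kind of domain, and Twisted gastrulation (Twsg1) forms a complex with Chordin and BMP that can either block or release the ligand.

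RNA was measured in 54 libraries that fall into 20 groups. At E16.5, untreated C57Bl/6J embryos gave CD29-HIGH, EpCAM, PDGFRA-HIGH and PDGFRA-MED cells, each from the distal, mid and proximal intestine, with 3 libraries per group. Epithelium (EpCAM) was also taken at E13.5 from the distal and proximal intestine, with 3 libraries each. Mothers of embryos labelled Top.CFP were dosed from E12.5, 2 times per day, with the porcupine inhibitor LGK974 or with vehicle. Collected at E16.5, the LGK974-treated embryos gave epithelium of the 3 regions with 3 libraries each. Vehicle-treated Top.CFP embryos gave 1 library per region. Porcupine adds the lipid that Wnt ligands need for secretion. Each mesenchymal sort is a gate on surface protein and can hold several cell types, and in such bulk libraries fewer cells of a type and less RNA per cell cannot be told apart. The labels do not name litters, so p-values measure the spread between these libraries.

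Values are RPKM, reads scaled to gene length and library size, so levels can be compared between genes. Differences are on the log2(RPKM + 0.5) scale, which understates changes of genes near 0, and are given ± SE from limma. A gene was called where the change exceeded 0.5 on that scale at a Benjamini-Hochberg adjusted p under 0.05 over all genes kept, and called between sorts where it passed in all 3 regions in the same direction. CD29-HIGH and PDGFRA-MED cells share a table, so values of that pair are from it, and other values are from the epithelium and PDGFRA table. CD29-HIGH and PDGFRA-HIGH cells were compared after reads recovered from both tables were put on a common scale.

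Pdgfra ranged over 0.682 to 8.98 RPKM in CD29-HIGH libraries, 587 to 1187 RPKM in PDGFRA-HIGH libraries and 65.3 to 107 RPKM in PDGFRA-MED libraries. The labels describe the CD29-HIGH gate as medium for PDGFRA protein, and its Pdgfra RNA lay far below that of the PDGFRA-MED sort. Itgb1, which encodes CD29, ranged over 368 to 587 RPKM in CD29-HIGH libraries, against 242 to 300.5 in PDGFRA-HIGH and 150.4 to 220.5 in PDGFRA-MED libraries. Epcam was at 477 to 575 RPKM in epithelium and at most 8.85 in the mesenchymal sorts. CD29-HIGH libraries carried the markers of smooth muscle: the summed level of 8 of 8 listed genes (Acta2, Actg2, Myh11, Tagln, Cnn1, Des, Smtn and Synpo2) was 14999 to 26011 RPKM there, against 331 to 845 in PDGFRA-HIGH and 243 to 383 in PDGFRA-MED libraries. The 5 listed pericyte genes summed to 107 to 211 RPKM in CD29-HIGH, 53.6 to 76.3 in PDGFRA-HIGH and 119 to 149 in PDGFRA-MED libraries, and the 6 listed endothelial genes to at most 8.10 RPKM in any E16.5 library of the 4 sorts. The 8 listed genes of enteric neurons and glia summed to 51.7 to 86.3 RPKM in CD29-HIGH, 605 to 937 in PDGFRA-HIGH and 53.4 to 108 in PDGFRA-MED libraries. In PDGFRA-HIGH libraries this sum was nearly all Ednrb (604 to 934 RPKM), while the other 7 genes were each at most 3.92 RPKM and Ret, Elavl4 and S100b at most 0.156. Among PDGFRA-HIGH libraries, mid replicate 3, distal replicate 1 and mid replicate 1 stood apart with the highest smooth muscle sums (845, 747 and 471 RPKM). The mean Grem1 differences of PDGFRA-HIGH from CD29-HIGH and PDGFRA-MED cells, and the regional Nog change in PDGFRA-HIGH cells, are given with and without these libraries. Tests of whether a regional change differed between sorts were not run without them as a set. Other values of PDGFRA-HIGH cells, such as summed levels, include them.

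To show what lies before a start of these genes, the 250 bases upstream of a transcript start are printed for the members with an entry in the RefSeq promoter table of GRCm38.p6, which were Grem1, Chrd and Twsg1, 3 of 6. They include the members with the highest levels in the CD29-HIGH sort (Grem1) and in the PDGFRA-HIGH sort (Twsg1). Sequences run 5′ to 3′ on the strand of the gene and end at the base before the start that the table uses. For Grem1 and Twsg1 that start is the end of the annotated gene, while for Chrd it lies inside the span of the gene given below, so the Chrd window is upstream of one transcript start and not of the whole gene. Capitals mark GGCGCC in Grem1 and Chrd and CAGGTG or its complement CACCTG in Twsg1.
Grem1, chr2:113758649-113758898, minus strand: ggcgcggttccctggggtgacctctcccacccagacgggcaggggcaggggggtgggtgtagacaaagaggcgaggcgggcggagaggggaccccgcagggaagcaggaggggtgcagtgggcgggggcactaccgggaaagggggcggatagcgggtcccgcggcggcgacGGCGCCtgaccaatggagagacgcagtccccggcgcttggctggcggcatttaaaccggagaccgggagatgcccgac
Chrd, chr16:20732877-20733126, plus strand: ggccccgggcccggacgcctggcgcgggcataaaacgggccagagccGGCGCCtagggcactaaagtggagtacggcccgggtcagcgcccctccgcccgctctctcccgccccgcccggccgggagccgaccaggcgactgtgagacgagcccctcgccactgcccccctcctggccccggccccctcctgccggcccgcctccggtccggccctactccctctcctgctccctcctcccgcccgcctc
Twsg1, chr17:65951188-65951437, minus strand: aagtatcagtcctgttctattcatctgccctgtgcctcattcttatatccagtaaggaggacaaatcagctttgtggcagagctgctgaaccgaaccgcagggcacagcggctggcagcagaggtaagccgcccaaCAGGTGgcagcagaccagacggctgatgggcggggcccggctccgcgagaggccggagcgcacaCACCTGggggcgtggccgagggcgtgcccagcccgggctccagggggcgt
GGCGCC, a GC-rich word that BMP-activated SMADs can bind, is its own complement and occurred once each in Grem1 (beginning 78 bases before the start) and Chrd (203 bases), and in 9.59% of 32851 promoter windows of this length. CAGGTG on either strand, an E-box, occurred at 114 and 50 bases before the start of Twsg1 and in 17.2% of windows. GGGCGG on either strand, the word bound by Sp1, occurred in all 3 promoters and in 32.7% of windows. Neither the CArG box, the serum response element that is common at smooth muscle genes (1.47% of windows), nor GTCTAGAC (0.167%), searched on both strands, was in these windows. The marked matches overlap no GGGCGG match. A match is a description of the letters only, and the windows are GC-rich (72%, 78% and 64.4% in Grem1, Chrd and Twsg1).

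Grem1 (gene ID 23892, chromosome 2, 113748675 to 113758648) was at far higher levels in CD29-HIGH cells than in the other sorts. Distal libraries of that sort had 119, 128 and 119 RPKM, mid libraries 148, 145 and 140, and proximal libraries 210, 248 and 213. PDGFRA-MED cells of the same table had 1.26, 1.34 and 1.46 RPKM in distal, 1.39, 1.43 and 2.34 in mid and 4.64, 3.03 and 4.35 in proximal libraries. No library of either sort came near the other. The difference was 5.92 ± 0.0839 as a mean over regions, 60.4-fold on this scale (limma, adjusted p = 6.59e-16, higher in 9 of 9 same-numbered pairs). PDGFRA-HIGH cells had 4.46, 0.992 and 0.548 RPKM in distal, 2.74, 0.376 and 4.43 in mid and 1.43, 0.639 and 0.317 in proximal libraries, and libraries of a region were far apart. Epithelium had 0.0973 to 0.522 RPKM, which rests on 3 to 17 reads a library. CD29-HIGH cells exceeded PDGFRA-HIGH cells by 6.48 ± 0.260 (limma, adjusted p = 1.32e-16, 9 of 9 pairs), and by 7.19 without the 3 PDGFRA-HIGH libraries with high smooth muscle sums, which were also the highest in Grem1. On the common scale CD29-HIGH cells held 97.0% to 97.7% of the level summed over the 4 sorts of a region. Such percentages, here and below, give each sort equal weight and do not count its cells. They are therefore not shares of the transcript in the tissue.

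The Grem1 level of PDGFRA-HIGH libraries moved with smooth muscle markers. The 3 libraries with the highest marker sums were also the 3 highest in Grem1 (4.43, 4.46 and 2.74 RPKM at sums of 845, 747 and 471), and the other 6 libraries had 0.317 to 1.43 RPKM at sums of 331 to 407. Per 1000 RPKM of the 8 smooth muscle genes, Grem1 was at 5.92 to 9.53 RPKM in CD29-HIGH libraries, 0.945 to 5.97 in PDGFRA-HIGH libraries and 3.99 to 16.9 in PDGFRA-MED libraries. Nog, on the same measure, was at 1.13 to 2.39 RPKM in CD29-HIGH libraries, 8.59 to 50.8 in PDGFRA-HIGH libraries and 2.88 to 8.66 in PDGFRA-MED libraries. The ranges of CD29-HIGH and PDGFRA-HIGH cells touched for Grem1 and lay apart for Nog. Epithelium, at marker sums of only 16.3 to 53.9 RPKM, had Grem1 at 5.22 to 18.5 and Nog at 0 to 3.90 on this measure. Both ranges overlapped those of CD29-HIGH libraries. Synpo2 and Smtn make up much of the lower PDGFRA-HIGH sums, so this measure is lower there than it would be on the other listed genes. What part smooth muscle cells in the gates have in the Grem1 level of the PDGFRA sorts was not tested. Against PDGFRA-MED cells, Grem1 in PDGFRA-HIGH cells was lower in the proximal intestine (-1.92 ± 0.502, limma, adjusted p = 0.0254), a call lost without PDGFRA-HIGH proximal replicate 2 or 3 or PDGFRA-MED proximal replicate 1 or 3 (adjusted p up to 0.126), while the mid and distal differences of 0.10 and 0.06 did not pass. The mean over regions was -0.59 (adjusted p = 1), and -1.29 without the 3 libraries named. Since these are also the 3 highest in Grem1, leaving them out could only lower the PDGFRA-HIGH level, and it leaves 1 mid library.

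**Figure D1:**
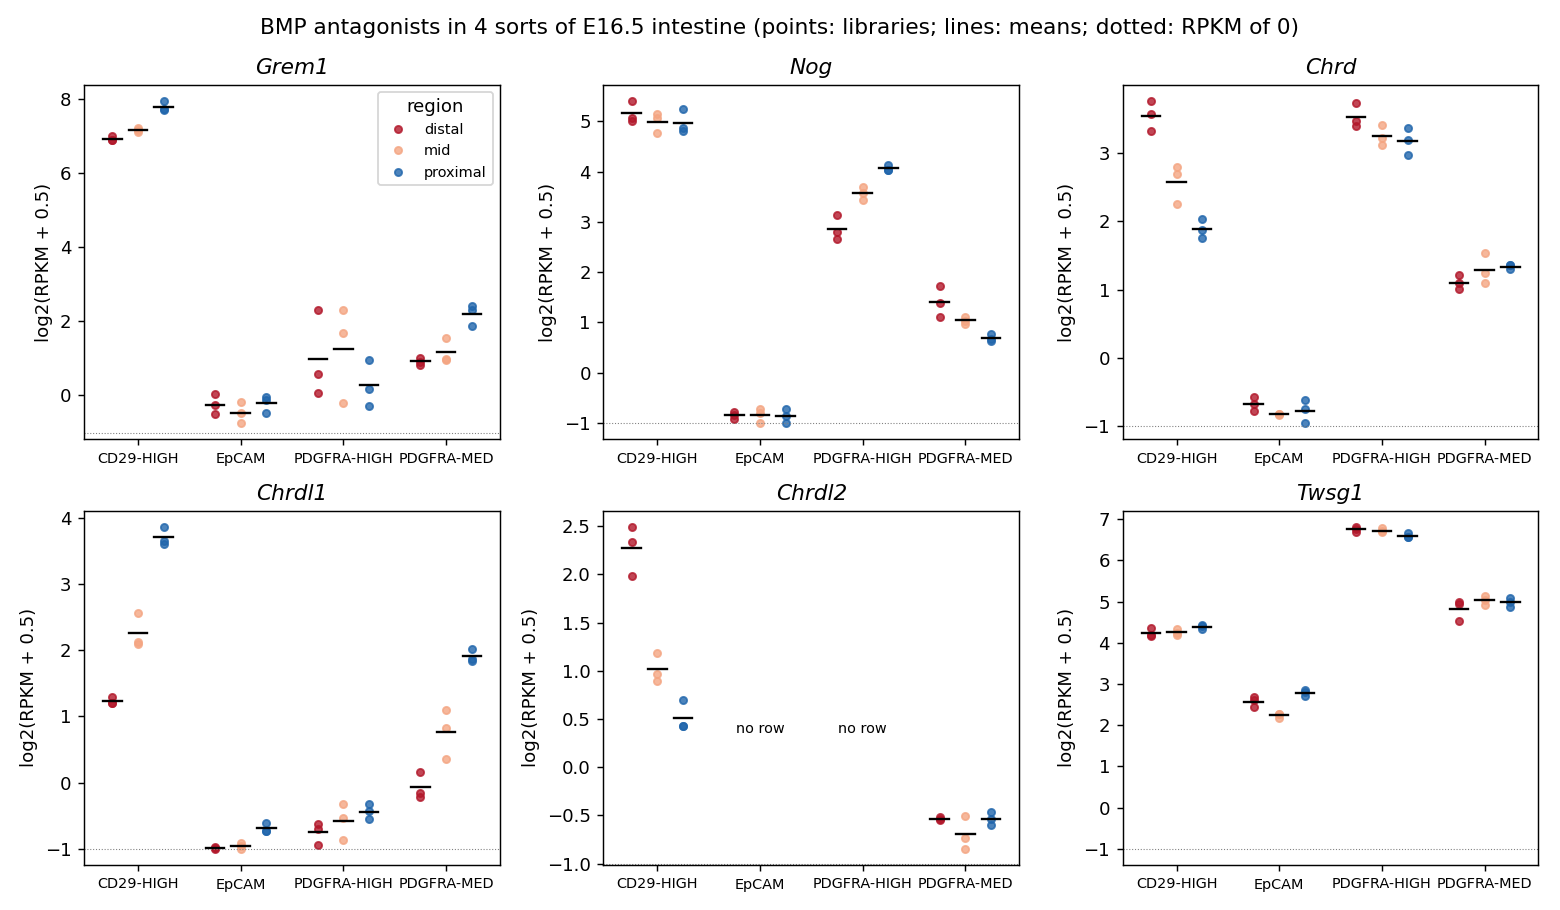
Level of the 6 antagonists as log2(RPKM + 0.5) (vertical axes) in the 4 sorts of E16.5 intestine (horizontal axes), with points for single libraries coloured by region, black lines for means of 3 libraries and a dotted line at an RPKM of 0. Grem1, Nog and Chrdl1 were highest in CD29-HIGH cells and Twsg1 in PDGFRA-HIGH cells, Chrdl2 was higher in CD29-HIGH than in PDGFRA-MED cells, the 2 sorts with values for it, and Chrd was at similar levels in distal CD29-HIGH cells (11.3 RPKM) and distal PDGFRA-HIGH cells (11.1 RPKM).

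Nog (gene ID 18121, chromosome 11, 89300638 to 89302559) had its highest levels in CD29-HIGH cells and a second, lower level in PDGFRA-HIGH cells. CD29-HIGH libraries had 33.1, 41.8 and 31.6 RPKM in distal, 32.9, 34.9 and 26.7 in mid and 28.6, 37.4 and 27.4 in proximal intestine. PDGFRA-MED libraries of the same table had 2.73, 2.05 and 1.6 RPKM in distal, 1.59, 1.49 and 1.39 in mid and 1.16, 1.02 and 1.06 in proximal intestine. The difference was 4.03 ± 0.0706, 16.4-fold (limma, adjusted p = 1.17e-15, 9 of 9 pairs). PDGFRA-HIGH libraries had 6.42, 5.80 and 8.24 RPKM in distal, 10.3, 12.4 and 11.4 in mid and 15.8, 15.9 and 17.0 in proximal intestine, and the 3 regions did not overlap. Their difference from PDGFRA-MED cells was 2.45 ± 0.0777, 5.46-fold (limma, adjusted p = 2.53e-15, 9 of 9 pairs). CD29-HIGH cells exceeded PDGFRA-HIGH cells by 2.29 in distal, 1.46 in mid and 0.95 in proximal intestine (mean 1.57 ± 0.0776, limma, adjusted p = 6.28e-13), the proximal call being lost without CD29-HIGH proximal replicate 2 (adjusted p = 0.0529) and with a pseudocount of 0.1 (0.97, adjusted p = 0.0601). Epithelium had at most 0.110 RPKM, on 0 to 4 reads a library. Of the level summed over 4 sorts, CD29-HIGH cells held 79.5% in distal, 71.3% in mid and 64.8% in proximal intestine, and PDGFRA-HIGH cells 15.4%, 25.1% and 32.8%.

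Chrd (gene ID 12667, chromosome 16, 20731425 to 20742384) had its higher levels in PDGFRA-HIGH and CD29-HIGH cells, and the balance between these sorts depended on the region. PDGFRA-HIGH libraries had 9.99, 12.7 and 10.5 RPKM in distal, 8.78, 10.1 and 8.20 in mid and 8.67, 9.80 and 7.31 in proximal intestine. PDGFRA-MED libraries of that table had 1.63, 1.82 and 1.51 RPKM in distal, 1.64, 1.88 and 2.39 in mid and 1.96, 2.06 and 2.06 in proximal intestine, and no PDGFRA-HIGH library reached down to them. The difference of 2.07 ± 0.0652 was 4.21-fold (limma, adjusted p = 4.86e-15, 9 of 9 pairs). CD29-HIGH libraries had 11.3, 13.1 and 9.49 RPKM in distal, 5.99, 6.43 and 4.27 in mid and 3.16, 3.59 and 2.88 in proximal intestine. Against PDGFRA-MED cells, CD29-HIGH cells were higher in distal (2.48 ± 0.132, limma, adjusted p = 6.48e-09) and mid intestine (1.34 ± 0.132, adjusted p = 6.92e-05), while the proximal difference of 0.59 did not pass (adjusted p = 0.723). Against PDGFRA-HIGH cells they were lower in the proximal intestine (-1.25 ± 0.119, limma, adjusted p = 2.97e-06), and the mid (-0.63) and distal (0.01) differences did not pass. CD29-HIGH cells held 46.5% of the summed level in distal and 23.6% in proximal intestine, against 46.1% and 61.3% in PDGFRA-HIGH cells. Epithelium had at most 0.169 RPKM, on 1 to 12 reads.

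Chrdl1 (gene ID 83453, chromosome X, 143285674 to 143394263) was highest in CD29-HIGH cells and second in PDGFRA-MED cells, unlike Nog and Chrd. CD29-HIGH libraries had 1.81, 1.81 and 1.95 RPKM in distal, 3.86, 3.76 and 5.38 in mid and 11.7, 12 and 14.1 in proximal intestine. PDGFRA-MED libraries of the same table had 0.602, 0.386 and 0.343 RPKM in distal, 0.749, 1.22 and 1.57 in mid and 2.97, 3.40 and 3.03 in proximal intestine. Within each region no library of these sorts overlapped, and the difference was 1.57 ± 0.0906, 2.97-fold (limma, adjusted p = 4.24e-08, 9 of 9 pairs). PDGFRA-HIGH libraries had 0.0206 to 0.296 RPKM on 3 to 50 reads, which was lower than PDGFRA-MED cells in proximal (-2.34 ± 0.158, limma, adjusted p = 2.31e-09) and mid intestine (-1.34 ± 0.158, adjusted p = 0.000126). The distal difference of -0.68 did not pass (adjusted p = 0.514), but did with a pseudocount of 0.1 (-1.55, adjusted p = 0.0102) or in limma-voom on recovered reads (-2.47, adjusted p = 0.0217). CD29-HIGH cells exceeded PDGFRA-HIGH cells by 3.01 ± 0.0853 (limma, adjusted p = 1.84e-20). Epithelium had at most 0.154 RPKM.

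Chrdl2 (gene ID 69121, chromosome 7, 100006404 to 100034728) could be described in CD29-HIGH and PDGFRA-MED cells only, as it had no row among the values of epithelium and PDGFRA-HIGH cells. CD29-HIGH libraries had 4.54, 5.13 and 3.47 RPKM in distal, 1.77, 1.45 and 1.36 in mid and 0.840, 0.842 and 1.12 in proximal intestine. PDGFRA-MED libraries had 0.0561 to 0.224 RPKM over all regions, below each CD29-HIGH library. The difference was 2.81 ± 0.151 in distal, 1.71 ± 0.151 in mid and 1.05 ± 0.151 in proximal intestine (mean 1.86 ± 0.0872, limma, adjusted p = 1.59e-09, 9 of 9 pairs). The proximal call was lost with a pseudocount of 1 (0.70, adjusted p = 0.214) and without CD29-HIGH proximal replicate 3 (adjusted p = 0.0530). Chrdl2 entered the test only through CD29-HIGH libraries, where it is high, as no PDGFRA-MED library reached an RPKM of 1.

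Twsg1 (gene ID 65960, chromosome 17, 65923065 to 65951187) was the only member of the 5 measured in both sorts with a higher level in PDGFRA-HIGH than in CD29-HIGH cells in every region. PDGFRA-HIGH libraries had 108, 102 and 112 RPKM in distal, 104, 109 and 102 in mid and 94.5, 95.0 and 100 in proximal intestine. PDGFRA-MED libraries of that table had 22.5, 31.0 and 30.1 RPKM in distal, 29.9, 32.1 and 34.4 in mid and 28.8, 33.5 and 31.0 in proximal intestine. The difference was 1.75 ± 0.0525, 3.37-fold (limma, adjusted p = 5.74e-15, 9 of 9 pairs). CD29-HIGH libraries had 17.3 to 20.9 RPKM and were lower than PDGFRA-HIGH libraries by 2.38 ± 0.0477 (limma, adjusted p = 2.83e-23, lower in 9 of 9 pairs). Their difference from PDGFRA-MED cells was -0.59 ± 0.0459, with each CD29-HIGH library below its pair, and did not pass as a mean (adjusted p = 0.111), though it did under quantile normalization (-0.74, adjusted p = 0.000125) and without PDGFRA-MED distal replicate 1 (-0.63, adjusted p = 0.00894). In the mid intestine alone it passed (-0.71 ± 0.0795, limma, adjusted p = 0.0478), a call lost without 12 of 18 libraries left out in turn (adjusted p up to 0.220), with a pseudocount of 1 (0.0659), with no filter (0.0569) and with no replicate block (0.117). Epithelium had 3.98 to 6.69 RPKM, the lowest of the 4 sorts but far above the other members there. Twsg1 was also the member with the largest share of the antagonist level outside CD29-HIGH cells: of the common-scale level summed over the 5 members measured in all sorts, it was 91.0% to 91.9% in epithelium, 78.9% to 84.3% in PDGFRA-HIGH, 74.7% to 83.1% in PDGFRA-MED and 7.01% to 9.73% in CD29-HIGH cells, where Grem1 was 64.5% to 76.9%.

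**Figure D2:**
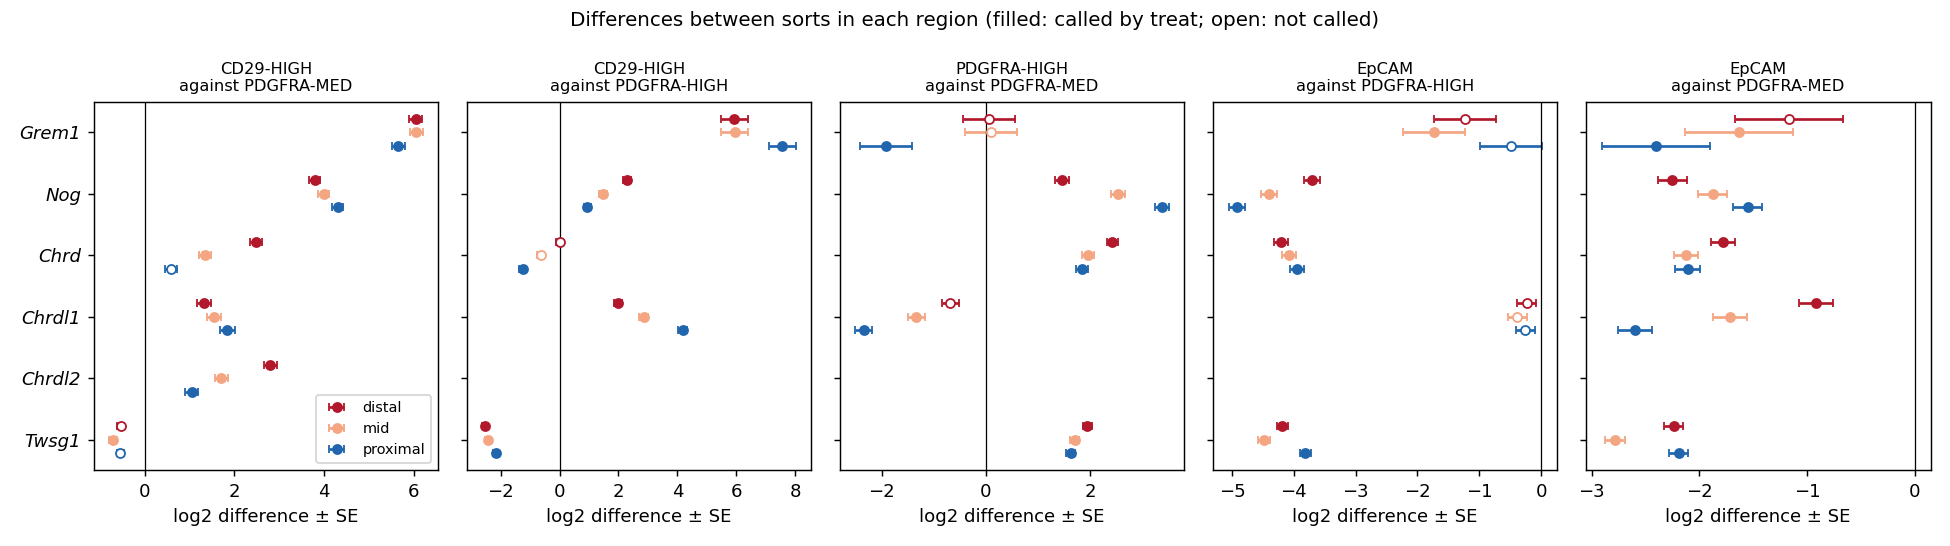
Differences between sorts for each antagonist as log2 difference ± SE (horizontal axes), one panel per comparison, in distal, mid and proximal intestine (colours), with filled points for differences that limma's treat called and open points for those it did not. Grem1 differed between CD29-HIGH and PDGFRA-MED cells by 5.65 to 6.05, and the largest errors are those of Grem1 in the comparisons among epithelium and PDGFRA sorts (SE 0.502).

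Counted over the members, CD29-HIGH cells were higher than PDGFRA-MED cells in all 3 regions for 4 of 6 (Grem1, Nog, Chrdl1 and Chrdl2), where 9.52% of all 13334 genes tested were. None was lower in all 3 regions (7.09% of all genes) at an adjusted or unadjusted p under 0.05 in limma's treat or by limma-voom. Against PDGFRA-HIGH cells they were higher for 3 of 5 (Grem1, Nog and Chrdl1) and lower for 1, Twsg1, where 23.6% of all 14315 genes were called in either direction. PDGFRA-HIGH cells were higher than PDGFRA-MED cells for 3 of 5 (Nog, Chrd and Twsg1; 7.79% of 14732 genes). None was lower in all 3 regions (8.04% of all genes) by limma's treat at an adjusted or unadjusted p under 0.05, and 1 (Chrdl1) was by limma-voom on recovered reads. Epithelium was lower than PDGFRA-MED cells for 4 of 5 (all but Grem1, whose distal difference did not pass; 21.3% of all genes) and lower than PDGFRA-HIGH cells for 3 of 5 (Nog, Chrd and Twsg1; 23.6%). No member was higher in epithelium than in PDGFRA-MED cells (21.4% of all genes) or PDGFRA-HIGH cells (25.5%), at an adjusted or unadjusted p or by limma-voom. The shares of all genes are the background for these counts. Chrdl2 in CD29-HIGH against PDGFRA-MED cells, and Chrdl1 in the comparisons of PDGFRA-HIGH cells or epithelium with a sort where it was higher, passed the filter only through that higher sort, so their calls add no support to the counts. Nog and Chrd were at most 0.110 and 0.169 RPKM in epithelium and passed only through the mesenchymal sorts. Their calls in epithelium add no support either, so only the Twsg1 calls there are free of this limit. Comparisons that share PDGFRA-MED or PDGFRA-HIGH libraries are not independent of each other.

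Along the intestine, 4 members changed within a mesenchymal sort and their directions differed. In CD29-HIGH cells, Chrd was higher in distal than in proximal intestine by 1.66 ± 0.132 (3.17-fold, limma, adjusted p = 4.12e-05), and Chrdl2 by 1.76 ± 0.151 (3.38-fold, adjusted p = 7.57e-05), each in 3 of 3 pairs. Chrdl1 was lower in distal than in proximal intestine, by -2.47 ± 0.157 in CD29-HIGH cells (5.54-fold, adjusted p = 1.01e-06) and by -1.98 ± 0.158 in PDGFRA-MED cells (3.94-fold, adjusted p = 2.66e-06). So the chordin-like genes ran in opposite directions within the same CD29-HIGH libraries. Among the epithelium and PDGFRA libraries, Chrdl1 reached 1 RPKM only in proximal and mid PDGFRA-MED cells (distal at most 0.614). It passed the filter through the regions where it is high, so its PDGFRA-MED call rests on them. Nog was lower in distal than in proximal PDGFRA-HIGH cells by -1.21 ± 0.135 (2.31-fold, adjusted p = 0.00137, 3 of 3 pairs), also without the 3 libraries with high smooth muscle sums, which leaves 2 distal libraries (-1.14, adjusted p = 0.0217), but not with a pseudocount of 0.1 (adjusted p = 0.0983). In CD29-HIGH cells its distal against proximal difference was 0.19 ± 0.122 and in PDGFRA-MED cells 0.71 ± 0.135, neither of which passed. Grem1 was at 121.8 ± 5.22 RPKM in distal and 224 ± 20.8 RPKM in proximal CD29-HIGH cells (SD, n = 3 each). Its difference of -0.87 ± 0.145 did not pass the minimum change of 0.5 (limma's treat, adjusted p = 0.321), though the libraries did not overlap and it passed in limma-voom on recovered reads (-0.88, adjusted p = 0.0164). The summed smooth muscle markers also lay lower in distal (14999 to 18333 RPKM) than in proximal CD29-HIGH libraries (22723 to 26011). So did the pericyte sums (107 to 120 RPKM in distal, 174 to 211 in proximal libraries), while Chrd and Chrdl2 ran the other way. The 3 listed genes of interstitial cells of Cajal summed to 49.7 to 55.3 RPKM in distal and 38.2 to 41.6 in proximal CD29-HIGH libraries, mostly Ano1 (43.5 to 48.4 and 30.2 to 34.0 RPKM), while Kit was at 1.54 to 2.55 and 2.73 to 3.34 RPKM. In PDGFRA-HIGH cells Pdgfra itself was at 587, 602 and 801 RPKM in distal and 937, 1088 and 1187 in proximal libraries, without overlap as for Nog, and the enteric sum, nearly all Ednrb, was at 605 to 819 and 787 to 937 RPKM. The part of any of these in the regional changes was not tested.

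Between any 2 regions, 3 of 6 members were called in CD29-HIGH cells (2.26% of all genes), 1 of 5 in PDGFRA-HIGH cells (2.53%), 1 of 5 in PDGFRA-MED cells (0.876%) and none in epithelium (6.68%), where none passed an unadjusted p under 0.05 in limma's treat or a call in limma-voom. The PDGFRA-MED call was that of Chrdl1, which passed the filter through the regions where it is high. It therefore adds no support to that count. Chrdl2 in CD29-HIGH cells passed mainly through distal and mid libraries. Mid intestine lay between the ends for the members called. In CD29-HIGH cells Chrdl1 was lower in mid than in proximal intestine by -1.45 ± 0.157 (limma, adjusted p = 0.00731), lost without proximal replicate 3, mid replicate 1 or mid replicate 2 (adjusted p up to 0.0768), and Chrdl2 was higher in distal than in mid intestine by 1.26 ± 0.151 (adjusted p = 0.0489), lost without any library but proximal replicate 3 and distal replicate 3 (up to 0.408).

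**Figure D3:**
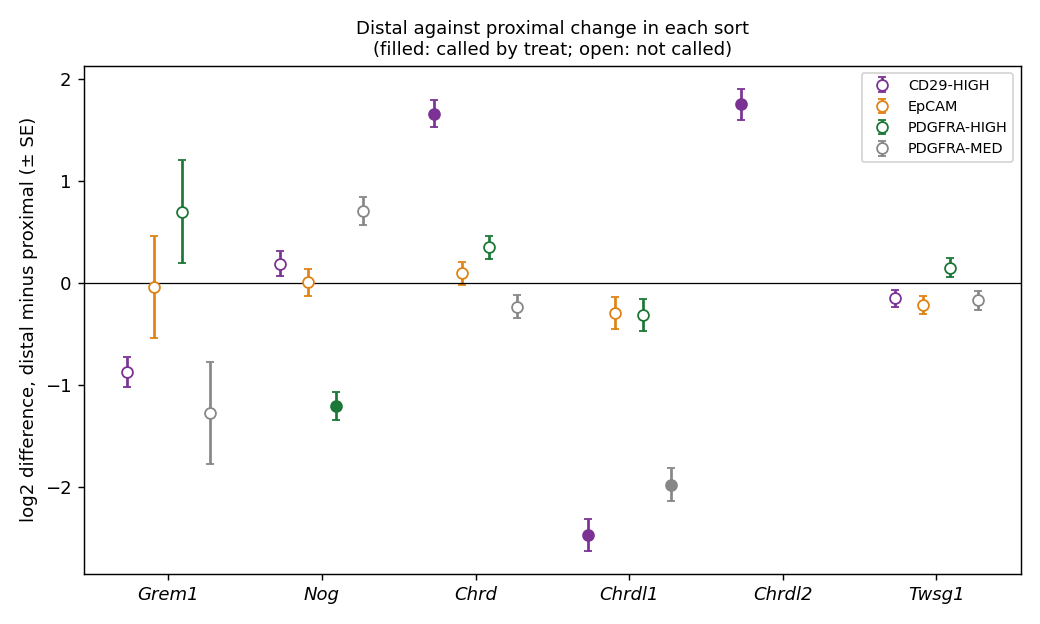
Change between distal and proximal intestine for each antagonist as log2 difference ± SE (vertical axis) in the 4 sorts (colours), with filled points for changes that limma's treat called. Chrd and Chrdl2 were higher distally in CD29-HIGH cells (1.66 and 1.76), Chrdl1 was lower distally in CD29-HIGH and PDGFRA-MED cells (-2.47 and -1.98), and Nog was lower distally in PDGFRA-HIGH cells (-1.21).

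Whether these regional changes differed between sorts was tested on the difference of the 2 changes, with no minimum change. The Chrd change differed between CD29-HIGH and PDGFRA-MED cells by 1.89 ± 0.186 (limma, adjusted p = 3.27e-05) and between CD29-HIGH and PDGFRA-HIGH cells by 1.26 ± 0.168 (adjusted p = 4.05e-06). The Chrdl2 change differed between CD29-HIGH and PDGFRA-MED cells by 1.76 ± 0.214 (adjusted p = 0.000179). Chrdl2 was at most 0.224 RPKM in PDGFRA-MED libraries and passed the filter only through CD29-HIGH cells. On the log2(RPKM + 0.5) scale its difference thus largely restates the change within CD29-HIGH cells, and it adds no support for a difference between sorts. The Nog change in PDGFRA-HIGH cells differed from that in PDGFRA-MED cells by -1.92 ± 0.190 (adjusted p = 1.89e-06), and CD29-HIGH cells differed from PDGFRA-HIGH cells by 1.34 ± 0.190 (adjusted p = 9.06e-06). For Chrdl1, CD29-HIGH and PDGFRA-MED cells differed by -0.52 ± 0.222, which did not pass (adjusted p = 0.157). Among all genes, 9.37%, 22.1% and 9.29% passed for CD29-HIGH with PDGFRA-MED, CD29-HIGH with PDGFRA-HIGH and PDGFRA-HIGH with PDGFRA-MED cells, and 20% and 26.1% for epithelium with PDGFRA-MED and with PDGFRA-HIGH cells. The comparison of CD29-HIGH with PDGFRA-HIGH cells was added after the values were seen.

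Ordered by level on the common scale, the members gave different rankings of the 12 E16.5 groups. Grem1 ran from proximal over mid to distal CD29-HIGH cells without overlap and then fell to proximal PDGFRA-MED cells, below which neighbouring groups overlapped. For Nog the 3 CD29-HIGH groups overlapped and were followed by proximal, mid and distal PDGFRA-HIGH, then distal, mid and proximal PDGFRA-MED cells, each apart from its neighbour. For Chrd, distal CD29-HIGH and distal PDGFRA-HIGH cells overlapped at the top. For Chrdl1, proximal PDGFRA-MED cells (3.23 RPKM) stood after mid and above distal CD29-HIGH cells (1.85 RPKM). For Twsg1 the PDGFRA-HIGH groups were followed by the PDGFRA-MED, the CD29-HIGH and then the epithelial groups.

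The rest of the pathway was read from 5 lists. The shares of all genes called higher and lower, against which these counts stand, were 9.52% and 7.09% for CD29-HIGH against PDGFRA-MED, 7.79% and 8.04% for PDGFRA-HIGH against PDGFRA-MED, 21.4% and 21.3% for epithelium against PDGFRA-MED and 25.5% and 23.6% for epithelium against PDGFRA-HIGH cells, and 23.6% in either direction for CD29-HIGH against PDGFRA-HIGH cells. Of 12 BMP ligands 8 were tested, and 6 were lower in CD29-HIGH than in PDGFRA-MED cells in all 3 regions, at a median of -2.48 where the median of all genes was 0.01. Bmp4 averaged 6.62 RPKM in CD29-HIGH libraries and differed by -3.79 ± 0.226 (limma, adjusted p = 9.02e-08), and Gdf6, a growth and differentiation factor of the BMP family, by -3.78 ± 0.126 (adjusted p = 6.79e-12). Against PDGFRA-HIGH cells 6 of 8 ligands were lower in CD29-HIGH cells at a median of -5.19 (all genes -0.01), among them Bmp2 (-6.32 ± 0.121) and Bmp3 (-5.87 ± 0.192), while Gdf10 was higher (1.91 ± 0.169). In PDGFRA-HIGH cells 6 of 8 ligands were higher than in PDGFRA-MED cells (median 2.50, all genes -0.02), with Bmp2 at 4.51 ± 0.0936 and Bmp5 at 4.13 ± 0.0744, and Gdf6 and Gdf10 were lower (-3.44 and -2.84). In epithelium 6 of 8 ligands were lower than in PDGFRA-MED cells, with Bmp4 at -6.39, and 8 of 8 were lower than in PDGFRA-HIGH cells, with Bmp4 at -8.29.

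Twsg1, which can either block or release the ligand, was kept apart when ligand and antagonist levels were summed. The summed RPKM of Grem1, Nog, Chrd and Chrdl1 was 170.5 ± 12.3 in distal, 186 ± 8.16 in mid and 271 ± 26.1 in proximal CD29-HIGH cells (SD, n = 3 each), where the 8 ligands with a row in that table summed to 26.1 to 30.1 RPKM as group means. In PDGFRA-HIGH cells the same 4 antagonists summed to 20.0 ± 0.883, 23.1 ± 1.14 and 25.9 ± 0.921 RPKM in distal, mid and proximal groups, and the 10 ligands of that table to 971 ± 19.9, 1052.5 ± 99.6 and 980.2 ± 35.8 RPKM. In PDGFRA-MED cells the antagonists summed to 5.70 to 10.6 RPKM and the ligands to 159.9 to 186 RPKM as group means, and in epithelium to 0.374 to 0.635 and 22.4 to 27.3 RPKM. With Twsg1 added, the antagonists summed to 189 ± 11.6, 204 ± 7.22 and 291 ± 25.5 RPKM in distal, mid and proximal CD29-HIGH cells, to 127 ± 5.10, 128 ± 3.19 and 122 ± 2.35 RPKM in PDGFRA-HIGH cells, and as group means to 33.6 to 41.7 RPKM in PDGFRA-MED cells and 4.61 to 7.04 RPKM in epithelium. The order of the sorts thus stayed, while the gap between CD29-HIGH and PDGFRA-HIGH cells was far smaller. Listed ligands were summed whatever the action of each, and Bmp3 among them averaged 242 RPKM over PDGFRA-HIGH libraries. These sums describe RNA and were not tested.

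Of 13 other secreted antagonists and modulators, 10 were tested. In CD29-HIGH cells 6 were higher than in PDGFRA-MED cells and 1 was lower (median 1.13, all genes 0.01). Bmper, a crossveinless homologue that binds BMPs, differed by 3.21 ± 0.0946 (limma), and Kcp, a chordin-related protein, was lower by -1.63 ± 0.0614. Against PDGFRA-HIGH cells 4 were higher and 2 lower of 10, with Bmper at 2.82 ± 0.0834, Kcp at -1.90 ± 0.0583 and Nbl1, another BMP antagonist, at -1.09 ± 0.0859. In PDGFRA-HIGH cells Fst, follistatin, an activin and BMP antagonist, was 3.80 ± 0.114 above PDGFRA-MED cells and Nbl1 2.23 ± 0.0968, and Fstl3, a follistatin relative, was -1.30 ± 0.0867 (2 higher and 1 lower of 10). Epithelium was lower for 6 of 10 against PDGFRA-MED cells, with Fstl1 at -6.77 and Kcp at -3.62, and for 5 of 10 against PDGFRA-HIGH cells, with Fstl1 at -6.47 and Fst at -5.73.

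Of 3 listed proteases that cut Chordin, 2 were tested in the PDGFRA sorts. Tll1, a tolloid-like protease, was higher in PDGFRA-HIGH than in PDGFRA-MED cells by 3.37 ± 0.0821 (limma, adjusted p = 9.73e-18), and averaged 12.1 RPKM in PDGFRA-HIGH, 0.334 RPKM in CD29-HIGH and 0.688 RPKM in PDGFRA-MED libraries. It was at most 0.969 RPKM outside PDGFRA-HIGH cells and passed the filter only through that sort. Its calls therefore rest on the sort where it is high. Bmp1, the founding member of that family, differed by 0.45 ± 0.0467 between PDGFRA-HIGH and PDGFRA-MED cells, which did not pass (adjusted p = 1). Bmp1 was lower in CD29-HIGH than in PDGFRA-MED cells by -1.19 ± 0.0555 and than in PDGFRA-HIGH cells by -1.67 ± 0.0545, and Tll1 was lower than in PDGFRA-HIGH cells by -3.87 ± 0.0843. In epithelium both were lower than in PDGFRA-MED cells (Bmp1 -4.08, Tll1 -1.21) and in PDGFRA-HIGH cells (-4.53 and -4.58).

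Receptors and response genes were split between the sorts. Of 11 receptors and co-receptors 10 were tested. The co-receptors Rgma and Rgmb, which bind BMP ligands at the cell surface, were higher in CD29-HIGH than in PDGFRA-MED cells by 2.39 ± 0.0329 and 2.46 ± 0.115, and the type I receptor Acvrl1 and the co-receptor Eng were lower by -2.06 ± 0.0906 and -1.99 ± 0.0904 (4 higher and 2 lower of 10, median 0.81, all genes 0.01). Against PDGFRA-HIGH cells these were 4.04, 3.92, -3.57 and -3.39 (3 higher and 2 lower of 10, median -0.15, all genes -0.01). PDGFRA-HIGH cells were higher than PDGFRA-MED cells for 5 (median 0.81, all genes -0.02), with Acvrl1 at 1.48 ± 0.0590 and Eng at 1.36 ± 0.0690, and lower for the co-receptors Rgma (-1.68) and Rgmb. In epithelium Acvr2a, a type II receptor, was higher than in PDGFRA-MED cells (1.09 ± 0.0616) and 7 were lower, with Acvrl1 at -4.77 and Eng at -4.63, and 7 were lower than in PDGFRA-HIGH cells, with Acvrl1 at -6.25 and Eng at -5.99.

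Of 14 intracellular and response genes 12 were tested. In PDGFRA-HIGH cells 7 were higher than in PDGFRA-MED cells (median 1.71, all genes -0.02), among them the BMP targets Id1 (3.45 ± 0.120) and Id2 (3.23 ± 0.0962). In CD29-HIGH cells 5 were higher than in PDGFRA-MED cells (median 0.49, all genes 0.01), among them Id4 (3.25 ± 0.0742) and Id2 (2.61 ± 0.0896). Against PDGFRA-HIGH cells Id4 was higher in CD29-HIGH cells (4.37 ± 0.111) and 6 were lower, with Smad7, an inhibitory SMAD, at -1.58 ± 0.0578 and Id3 at -1.56 ± 0.0818. In epithelium Id2 was higher than in PDGFRA-MED cells (1.76 ± 0.0962), 4 genes were lower, with Smad9 at -2.67 and Atoh8 at -2.40, and 7 were lower than in PDGFRA-HIGH cells, with these at -5.28 and -3.89. Comparisons share libraries, so the counts are not independent of each other. Genes of these lists below 1 RPKM in each library of a sort passed the filter only through other sorts, where they are higher. Their calls against those sorts add no support to the counts. Among the named genes these include Gdf6 in CD29-HIGH cells, Bmp4, Fst, Kcp, Acvrl1, Eng and Smad9 in epithelium, and Tll1 outside PDGFRA-HIGH cells.

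**Figure D4:**
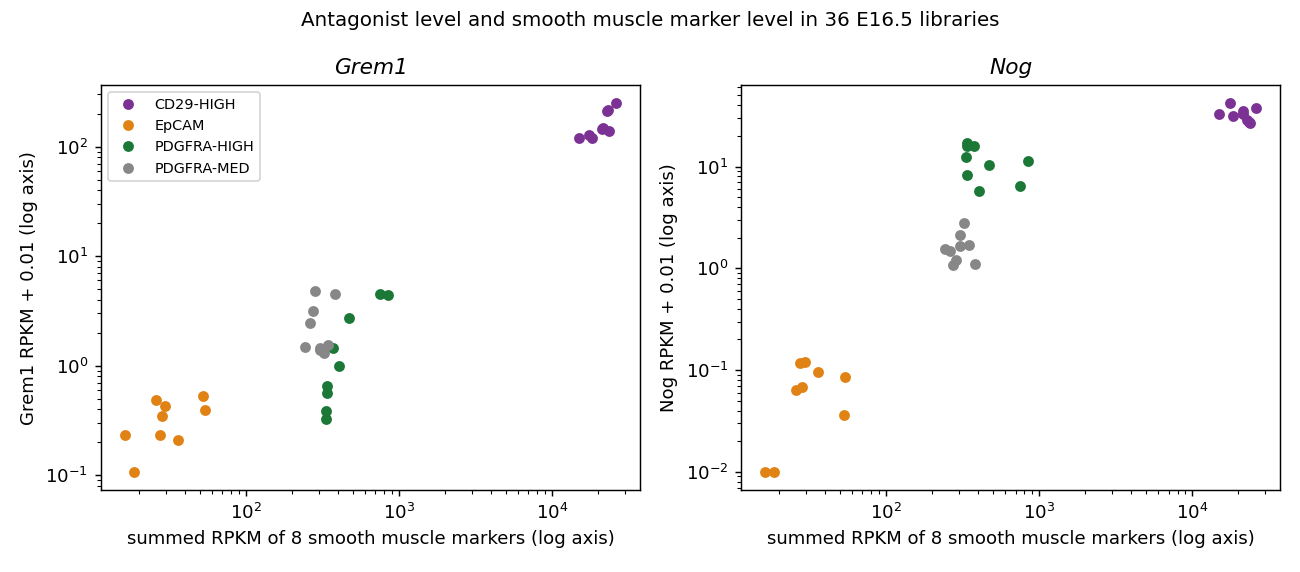
Level of Grem1 (left) and Nog (right) as RPKM + 0.01 (vertical log axes) against the summed RPKM of 8 smooth muscle markers (horizontal log axes) in 36 E16.5 libraries, coloured by sort. PDGFRA-HIGH libraries with higher marker sums had more Grem1 (2.74 to 4.46 RPKM in the 3 highest), while their Nog levels of 5.80 to 17.0 RPKM lay above those of PDGFRA-MED cells at similar sums.

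The genes most like each member were those with the highest Pearson correlation over the means of the 12 E16.5 groups on the common log2 scale, among 14314 other genes. For Grem1 these were Mtpn (r = 0.996), Lmod1 (0.994) and Lims2 (0.994), and Lmod1, leiomodin of smooth muscle, averaged 125.7 RPKM on that scale in CD29-HIGH libraries and at most 1.78 in another sort. For Nog they were Cdk5 (0.993), Myocd (0.989) and Ppp2r5e (0.989). Myocd, the coactivator myocardin, averaged 115.7 RPKM on the same scale in CD29-HIGH, 0.2 in epithelium, 18.2 in PDGFRA-HIGH and 3.82 in PDGFRA-MED libraries. Chrd went with Col23a1 (0.986), Gm13889 (0.983) and Mtcl1 (0.981), Chrdl1 with Tmod1 (0.989), Cntn1 (0.978) and Sema3e (0.962), and Twsg1 with Kdm5b (0.997), Zbtb34 (0.995) and Hdac9 (0.995). Among the members themselves, Nog and Chrd (0.880) and Grem1 and Chrdl1 (0.873) were the most alike, and Grem1 and Twsg1 (0.040) and Chrdl1 and Twsg1 (0.032) the least. The groups share sorts and regions and so are not independent, and these coefficients describe 12 points only.

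At E13.5 Nog and Chrdl1 were at low levels in the epithelium. The E13.5 table was scaled separately and was not tested against E16.5. Nog had 1.33, 1.02 and 1.72 RPKM in distal and 0.168, 0.0688 and 0.0641 RPKM in proximal E13.5 epithelium, on 43 to 58 and 2 to 8 reads. The libraries did not overlap, and the difference of 1.62 ± 0.234 passed (limma, adjusted p = 0.0397, 3 of 3 pairs), where 2.16% of 12473 genes did. Nog entered the test only through its distal libraries, since the filter asked for 3 libraries with an RPKM of 1 or more, so the call rests on the group where it is high. Other markers moved with it without overlap: the 3 of 5 fibroblast genes in the table summed to 8.73 to 14.8 RPKM in distal and 2.39 to 6.81 in proximal libraries, mostly Col3a1, the 4 of 5 mesothelial genes to 79.1 to 98.3 and 62.8 to 68.2 RPKM, and the 8 epithelial genes to 1067 to 1274 and 1300.2 to 1799 RPKM. In E16.5 epithelium the mesothelial sum was mostly Krt7 (87.3 to 132 RPKM, against at most 4.57 in the mesenchymal sorts). The part of these marker genes in the Nog difference was not tested. The call was lost without any of the 3 proximal libraries (adjusted p up to 0.172) and with a pseudocount of 1 (0.140), and without any distal library Nog was not tested. Chrdl1 ran the other way, at 0.234, 0.115 and 0.129 RPKM in distal and 1.01, 0.905 and 1.16 RPKM in proximal epithelium, but did not reach the filter. Tested with no filter it differed by -1.21 ± 0.159 and did not pass (adjusted p = 0.0632). Chrd was at 0.132 to 0.618 RPKM, below the filter. Twsg1 had 14.9, 17.0 and 16.8 RPKM in distal and 18.8, 17.0 and 16.3 RPKM in proximal epithelium, which did not differ beyond the spread (-0.10 ± 0.0930, adjusted p = 1), and E16.5 epithelium had 3.98 to 6.69 RPKM in its own table.

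In the inhibitor experiment only Twsg1 passed the filter. LGK974-treated epithelium had 2.52, 2.35 and 2.59 RPKM in the distal intestine, against 6.06 RPKM in the vehicle library and 5.66, 5.35 and 4.70 RPKM in untreated libraries. In the mid intestine it had 1.89, 2.03 and 1.98 RPKM, against 4.95 in the vehicle library and 4.17, 4.15 and 3.87 in untreated libraries. In the proximal intestine it had 5.13, 5.47 and 4.77 RPKM, against 5.14 in the vehicle library and 6.25, 5.82 and 6.46 in untreated libraries. Distal and mid LGK974 libraries lay below each control, while in the proximal intestine the vehicle library lay within the range of the LGK974 libraries. Twsg1 was lower by -0.99 ± 0.0964 in distal (1.98-fold, limma, adjusted p = 0.000549) and by -0.95 ± 0.0964 in mid epithelium (1.94-fold, adjusted p = 0.00205), where 6.9% and 4.5% of 12865 genes were called lower, and the proximal difference of -0.19 ± 0.0964 did not pass (adjusted p = 1, 0.995% of genes called lower). The mid call was lost under quantile normalization (-0.73, adjusted p = 0.213). The change differed from the proximal one by -0.80 ± 0.136 in distal (limma, adjusted p = 0.000266) and -0.76 ± 0.136 in mid epithelium (adjusted p = 0.000682), where 9.96% and 7.42% of genes passed in that direction, a test added after the values were seen. Marker sums moved too. The 3 listed genes of interstitial cells of Cajal summed to 0.710 to 1.01 RPKM in distal LGK974 libraries, 10.5 in the vehicle library and 12 to 14.4 in untreated libraries, and to 0.508 to 0.925, 6.65 and 6.77 to 9.32 RPKM in mid epithelium, mostly through Kit and Etv1. In the proximal intestine they were at 4.39 to 7.50 RPKM under LGK974, 5.20 with vehicle and 8.94 to 13.0 untreated. Untreated E16.5 epithelium had Kit at 5.22 to 10.4 RPKM. Kit was at 1.54 to 3.34 in CD29-HIGH, 0.305 to 1.12 in PDGFRA-HIGH and 3.41 to 11.4 in PDGFRA-MED libraries. Etv1 (1.69 to 3.98 RPKM) and Ano1 (0.168 to 1.83 RPKM) lay lower in that epithelium than in each mesenchymal sort. In epithelium this sum need not stand for Cajal cells. Smooth muscle sums were at 6.30 to 16.5 RPKM in LGK974 libraries of all regions and 15.1 to 51.3 in controls. Mesothelial sums, nearly all Krt7, were at 42.0 to 52.8 RPKM in mid LGK974 libraries, 100.01 with vehicle and 92.7 to 106 untreated. Their part in the Twsg1 change was not tested. Treated embryos carry Top.CFP and the untreated controls do not, so strain and treatment can be told apart only by the 1 vehicle library per region. Grem1 was at 0 to 0.164 RPKM in LGK974 libraries and 0.0721 to 0.502 RPKM in control libraries, and Chrdl1 at 0 to 0.249 and 0 to 0.149 RPKM, both below the filter. With no filter, the Chrdl1 change differed between distal and proximal epithelium by -0.31 ± 0.0919 (limma, adjusted p = 0.0210), on levels of at most 30 reads a library.

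**Figure D5:**
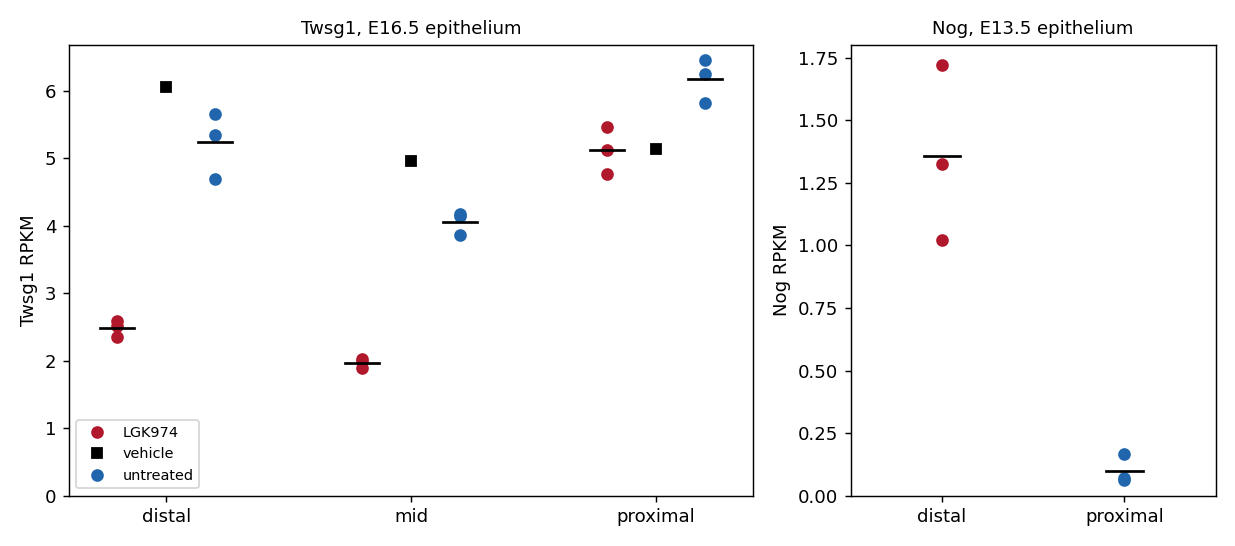
RPKM (vertical axes, from 0) of Twsg1 in E16.5 epithelium of LGK974, vehicle and untreated libraries by region (left) and of Nog in E13.5 epithelium by region (right), with points for libraries and lines for means of 3. Twsg1 was at 1.89 to 2.59 RPKM in mid and distal LGK974 libraries, below each control, and Nog was at 1.02 to 1.72 RPKM in distal and at most 0.168 RPKM in proximal E13.5 libraries.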

How the data were processed

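Sorted cells were sequenced with a stranded total RNA kit. The authors aligned reads to mm10, counted them over RefSeq genes with featureCounts, using strand, and deposited RPKM values made with edgeR, each table scaled on its own. Reads with several alignments could be counted. One deposited column, the authors' mean log2 expression over libraries, was not used. Dividing out gene length and depth gave reads back, 100% of them whole within 0.01, with 15072991 to 26658039 per library. Chrdl2 had no length given, so 1520 bases were used, the smallest of 13 lengths that gave whole reads. Libraries repeated between tables had equal reads, and no replicate pair looked like a library deposited again (chi-square per degree of freedom 8.84 to 65.6).

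Differences were fitted with limma 3.58.1 (R 4.3.3). The pseudocount was 0.5 RPKM, a gene was kept where 3 libraries reached an RPKM of 1, and treat asked for a minimum log2 change of 0.5. The replicate number entered as a block, following the model of the study, in which it stands for the mother. Same-numbered libraries deviated together in part (mean correlation 0.137, 0.239 and 0.200, over 0.1 in 59 of 108, 32 of 45 and 2 of 3 pairs, in the epithelium and PDGFRA, CD29-HIGH and E13.5 tables). The inhibitor fit had no block and pooled untreated and vehicle libraries as 4 controls per region. CD29-HIGH and PDGFRA-HIGH cells were compared on reads scaled together by median ratios. Fits were tested on simulated data. Alternatives were other pseudocounts, no filter, quantile normalization, no minimum change, limma-voom on recovered reads, the block, and leaving out libraries. Gene positions and promoters are from RefSeq (GRCm38.p6, the assembly called mm10).

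The members and lists were chosen with earlier results of these data known. Named were the 6 members, per list and comparison at most the 2 called genes with the largest change in each direction, the 3 genes most like each member, and the genes of the sort markers. Genes of the marker lists are named beside their sums. 1 gene that this rule names is not reported here.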

Additional observations from a re-analysis of the deposited data

Results flagged for a closer look

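The distal against proximal change differed between sorts for several members, by limma's test of the difference itself. Between CD29-HIGH and PDGFRA-MED cells it differed by 1.89 for Chrd and 1.76 for Chrdl2 on the log2 scale. Chrdl2 was at most 0.224 RPKM in PDGFRA-MED libraries, so its value largely restates the change within CD29-HIGH cells. Between PDGFRA-HIGH and PDGFRA-MED cells it differed by -1.92 for Nog, 0.58 for Chrd and 1.66 for Chrdl1. The Chrd value lost its call without 5 of 12 libraries left out in turn (adjusted p up to 0.0903) and with a pseudocount of 0.1 (adjusted p = 0.154), and the Chrdl1 value in limma-voom on recovered reads (1.29, adjusted p = 0.352). Between CD29-HIGH and PDGFRA-HIGH cells it differed by 1.34 for Nog, 1.26 for Chrd, -2.19 for Chrdl1 and -0.36 for Twsg1, the last lost without 6 of 12 libraries (adjusted p up to 0.0690) and with no common scaling (0.0711). The Chrdl1 value lost its call in limma-voom (-1.29, adjusted p = 0.198). Chrdl1 was at most 0.296 RPKM in PDGFRA-HIGH libraries, on 3 to 50 reads, and passed the filter only through other sorts. Its differences from PDGFRA-HIGH cells (1.66 and -2.19) thus largely restate the change within PDGFRA-MED or CD29-HIGH cells. They add no support for a difference between sorts.

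Between epithelium and PDGFRA-MED cells the distal against proximal change differed by -0.70 for Nog and 1.68 for Chrdl1, and between epithelium and PDGFRA-HIGH cells by 1.22 for Nog and -0.37 for Twsg1. Nog had at most 4 reads in each E16.5 epithelial library, and Chrdl1 at most 20. At such levels epithelial values can hardly move on the log2(RPKM + 0.5) scale, so these differences for Nog and Chrdl1 largely restate the change within the mesenchymal sort with its sign turned. In limma-voom none of the 3 passed (Nog -0.48, adjusted p = 0.790, and 1.77, adjusted p = 0.207; Chrdl1 -1.16, adjusted p = 0.610), and with a pseudocount of 0.1 the Nog difference from PDGFRA-MED cells did not either (adjusted p = 0.122). The Twsg1 value was lost without 9 of 12 libraries (adjusted p up to 0.123). Among all genes, 20% and 26.1% passed in these comparisons.

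The change of Twsg1 under LGK974 differed between regions, by -0.80 between distal and proximal and by -0.76 between mid and proximal epithelium.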

How the results depend on the processing

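The 4 members called higher in CD29-HIGH than in PDGFRA-MED cells ranged over 3 to 4 when libraries were left out in turn, the 3 called higher against PDGFRA-HIGH cells over 2 to 3, and the 4 called lower in epithelium than in PDGFRA-MED cells over 3 to 4. Over calls of members between regions, CD29-HIGH cells had 2 to 3 higher (3 with all libraries) and 1 to 2 lower (2), and PDGFRA-MED cells 1 to 2 lower (1). For differences of the regional change, PDGFRA-HIGH with PDGFRA-MED cells had 1 to 3 higher (2), epithelium with PDGFRA-HIGH cells 0 to 1 lower (1) and CD29-HIGH with PDGFRA-HIGH cells 1 to 2 lower (2). The 1 E13.5 call (Nog) was down to 0 when any proximal library was left out, and also when any distal library was, since Nog then missed the filter.

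With no minimum change, 1 member instead of 0 was lower in PDGFRA-HIGH and in CD29-HIGH than in PDGFRA-MED cells, and calls between regions were 5 higher and 5 lower in CD29-HIGH, 1 higher and 3 lower in PDGFRA-HIGH, 1 higher and 3 lower in PDGFRA-MED and 1 higher and 1 lower in epithelium. With a pseudocount of 0.1, 1 member was lower in PDGFRA-HIGH than in PDGFRA-MED cells, calls between regions were 1 lower in CD29-HIGH and 0 lower in PDGFRA-HIGH cells, and differences of the regional change were 1 lower for CD29-HIGH with PDGFRA-MED, 1 higher for PDGFRA-HIGH with PDGFRA-MED and 0 lower for epithelium with PDGFRA-MED cells. With a pseudocount of 1, CD29-HIGH with PDGFRA-MED cells had 1 lower and E13.5 had 0 higher. Under quantile normalization that pair had 1 lower and LGK974 1 lower instead of 2. In limma-voom on recovered reads, 1 member was lower in PDGFRA-HIGH than in PDGFRA-MED cells, and differences were 1 lower for CD29-HIGH with PDGFRA-MED, 1 higher for PDGFRA-HIGH with PDGFRA-MED, 0 higher and 0 lower for epithelium with PDGFRA-MED, 0 higher for epithelium with PDGFRA-HIGH and 1 lower for CD29-HIGH with PDGFRA-HIGH cells. There the Chrdl1 difference between epithelium and PDGFRA-MED cells reversed to -1.16 (adjusted p = 0.610). With no common scaling, CD29-HIGH with PDGFRA-HIGH cells had 1 lower. The cause of these shifts was not tested.

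Without the replicate block 1 of 195 calls of single values changed, the Twsg1 difference of CD29-HIGH from PDGFRA-MED cells in mid intestine (-0.71, adjusted p = 0.0478 with the block and 0.117 without it), and a block in the LGK974 fit changed 0 of 5. Over all genes, the count of regional changes that differed between CD29-HIGH and PDGFRA-MED cells was 542 higher and 708 lower with the block and 302 and 447 without it. It was 265 and 488 without CD29-HIGH distal replicate 1. Between regions of PDGFRA-MED cells, 45 genes were higher and 84 lower, against 42 and 220 without proximal replicate 2 and 30 and 55 without distal replicate 2. At E13.5, 175 were higher and 95 lower, against 236 and 188 in limma-voom, 65 and 57 or 99 and 40 without proximal replicate 1 or 2, and 54 and 91 or 66 and 50 without distal replicate 1 or 2. With no minimum change, calls were 3572 and 3304 instead of 1147 and 1184 for PDGFRA-HIGH against PDGFRA-MED, 5347 and 5022 instead of 3153 and 3139 for epithelium against PDGFRA-MED, 5698 and 5303 instead of 3750 and 3482 for epithelium against PDGFRA-HIGH, 3492 and 2925 instead of 1269 and 945 for CD29-HIGH against PDGFRA-MED, 4070 and 3932 instead of 1790 and 1589 for CD29-HIGH against PDGFRA-HIGH cells, 4519 and 4068 instead of 1136 and 1067 for LGK974 and 1008 and 901 at E13.5. Between regions they were then 2304 and 2248 (116 and 185) in CD29-HIGH, 1679 and 1676 (176 and 196) in PDGFRA-HIGH, 688 and 1208 in PDGFRA-MED and 2850 and 3135 (332 and 663) in EpCAM cells. The libraries give few reads for members below about 1 RPKM, so epithelial levels of Grem1, Nog, Chrd and Chrdl1 are near the limit of these counts.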
